A study of Mus musculus with 2 samples.

Results

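The genes described here are the insulin-like growth factor (IGF) system of the vessel wall: the ligands Igf1 and Igf2, the receptor Igf1r, and the binding proteins Igfbp2, Igfbp3, Igfbp4, Igfbp5, Igfbp6 and Igfbp7. They are 9 of the 32285 genes in the count matrices and were chosen by name, with earlier results of these data known. The cells came from mouse aorta and were enriched with magnetic beads against CD31, a surface protein of endothelial cells (EC), before droplet-based single-cell RNA sequencing. The series addresses endothelial CD45, the leukocyte phosphatase that Ptprc encodes, and endothelial-to-mesenchymal transition in atherosclerosis. Both groups were ApoE-/- mice on C57BL/6 that were fed a Western diet. The library named WT carried no further deletion in its labels, and the EC-iCD45KO group carried a tamoxifen-inducible, endothelium-specific deletion of CD45. The promoter of the Cre, the age of the mice and any pooling of animals were not given in the sources used here, nor whether the WT mice received tamoxifen. Each group had 1 library, so no difference has a replicate check and no test between groups was possible. Every interval below is a 95% interval that covers counting error only. Where a pair of values is given without names, that of WT comes first.

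IGF1 and IGF2 are small secreted hormones that act on cells through the receptor tyrosine kinase IGF1R, which signals through insulin receptor substrates, PI3K and AKT. The classical binding proteins carry the ligands outside cells, and depending on the tissue and on proteases that cleave them they hold the ligands back or release them near the receptor. IGFBP7 binds the ligands weakly and is known as a matrix protein of blood vessels. In the artery wall IGF1 is known to act on smooth muscle cells (SMC), endothelium and macrophages, and Igf2 is an imprinted gene with high expression before birth.

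The libraries held 39849 (WT) and 30278 (EC-iCD45KO) cell barcodes, with 92058043 and 88967918 unique molecular identifiers (UMIs, each counting 1 captured RNA molecule). After filtering and removal of likely doublets, 35553 and 26064 cells were grouped into clusters, and a cluster was called "X-like" where the markers of a cell class led it. The EC-like class counted 3807 and 4495 cells, and the 12 endothelial markers summed to 4695 and 5081 CPM there, none of them at 0. The CPM unit scales a gene's UMIs to the same total in each group of cells. In the largest EC-like cluster, led by Rbp7 and Fabp4 (2043 and 2515 cells), macrophage markers summed above the endothelial markers, as given below for Igf1. Of all cells, 28.4% in WT and 13.2% in EC-iCD45KO stayed in unnamed clusters. B-like cells made up 16.3% of WT and 1.27% of EC-iCD45KO cells, and macrophage-like cells 9.82% and 31.6%. Ptprc, the deleted gene, stood at 292 CPM in WT and 111 CPM in EC-iCD45KO among EC-like cells (log2 ratio -1.40, -1.50 to -1.30), and fibroblast-like cells, which the deletion does not target, had a log2 ratio of -1.24 (-1.37 to -1.10). Over the other classes compared its log2 ratio ran from -0.84 in macrophage-like to 0.90 in neutrophil-like cells. In EC-like cells the 7 B cell markers summed to 863 CPM in WT and 63.3 CPM in EC-iCD45KO and the 9 T and NK cell markers to 408 and 81.7 CPM, and their part in the Ptprc difference was not tested. The deleted exons were not given in the sources used here, and 3' tags outside them would not check the deletion. RNA set free by broken cells can enter any droplet, so B-like cells are used below as the class that should lack most of these genes, with median depths of 2007 and 2560.5 UMIs. Neutrophil-like cells were also planned for this reading, and every member was higher in them than in B-like cells. They had Igf1 at 108 CPM in both libraries, Igfbp4 at 50.6 and 53.3 CPM and Igfbp7 at 159 and 184 CPM. Their Igf2, Igfbp2, Igfbp3 and Igfbp5 stayed at or below 10.2 CPM. Whether these levels are free RNA was not tested.

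Among the members, Igfbp2 and Igfbp5 are close neighbours on chromosome 1 (GRCm38), pointing towards each other with 5458 bases between their ends. Igfbp2 lies on the plus strand at 72824503 to 72852474 and Igfbp5 on the minus strand at 72857932 to 72874884. Their upstream sequences are shown because the neighbours had different leading classes, and that of Igfbp4 because this gene had the most UMIs of the classical binding proteins in both libraries. Each run is the 250 bases before the start of transcription, 5′ to 3′ on the gene's own strand, from RefSeq on GRCm38.p6. Capitals mark TATAA and GGGCGG, searched on both strands, and a run without capitals holds neither.
Igfbp2, chr1:72824230-72824479, plus strand: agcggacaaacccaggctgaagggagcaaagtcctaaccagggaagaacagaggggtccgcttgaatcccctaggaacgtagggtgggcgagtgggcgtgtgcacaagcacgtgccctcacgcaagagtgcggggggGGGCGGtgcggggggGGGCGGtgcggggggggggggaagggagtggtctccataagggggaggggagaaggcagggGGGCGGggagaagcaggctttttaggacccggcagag
Igfbp5, chr1:72874866-72875115, minus strand: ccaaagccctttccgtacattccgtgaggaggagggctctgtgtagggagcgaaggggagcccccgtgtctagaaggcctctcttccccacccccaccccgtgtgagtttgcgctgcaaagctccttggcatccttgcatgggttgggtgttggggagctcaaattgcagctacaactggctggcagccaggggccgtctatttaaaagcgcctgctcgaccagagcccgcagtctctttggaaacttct
Igfbp4, chr11:99040994-99041243, plus strand: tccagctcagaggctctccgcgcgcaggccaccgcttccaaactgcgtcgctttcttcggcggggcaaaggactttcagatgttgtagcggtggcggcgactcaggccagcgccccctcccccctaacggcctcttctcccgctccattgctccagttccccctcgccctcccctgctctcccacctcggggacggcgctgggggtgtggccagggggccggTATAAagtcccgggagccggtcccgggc
The table has 2 starts for Igfbp2, of which the more upstream is printed. Its window held GGGCGG 3 times and that of the other start held neither motif. The window of Igfbp4 held TATAA once, beginning 28 bases before the start. All 9 members matched the promoter table, with 13 starts in all. Over all 32851 promoters of 300 bases in the table, 24.9% held TATAA and 35.7% held GGGCGG on either strand. These matches describe the letters only.

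The members differed in the cells that carried them (the plot of levels by class). The class with the highest level was the same in both libraries for 8 of the 9 members. Igf2 and Igfbp3 led in EC-like cells, Igfbp2 and Igfbp7 in SMC-like cells, Igfbp4 and Igfbp6 in fibroblast-like cells, Igfbp5 in lymphatic EC-like cells and Igf1r in neutrophil-like cells. For Igfbp5 in WT the lead over fibroblast-like cells, 432 against 428 CPM, lay within counting error. The exception was Igf1, which led in macrophage-like cells in WT and in erythroid-like cells in EC-iCD45KO.

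**Figure D1:**
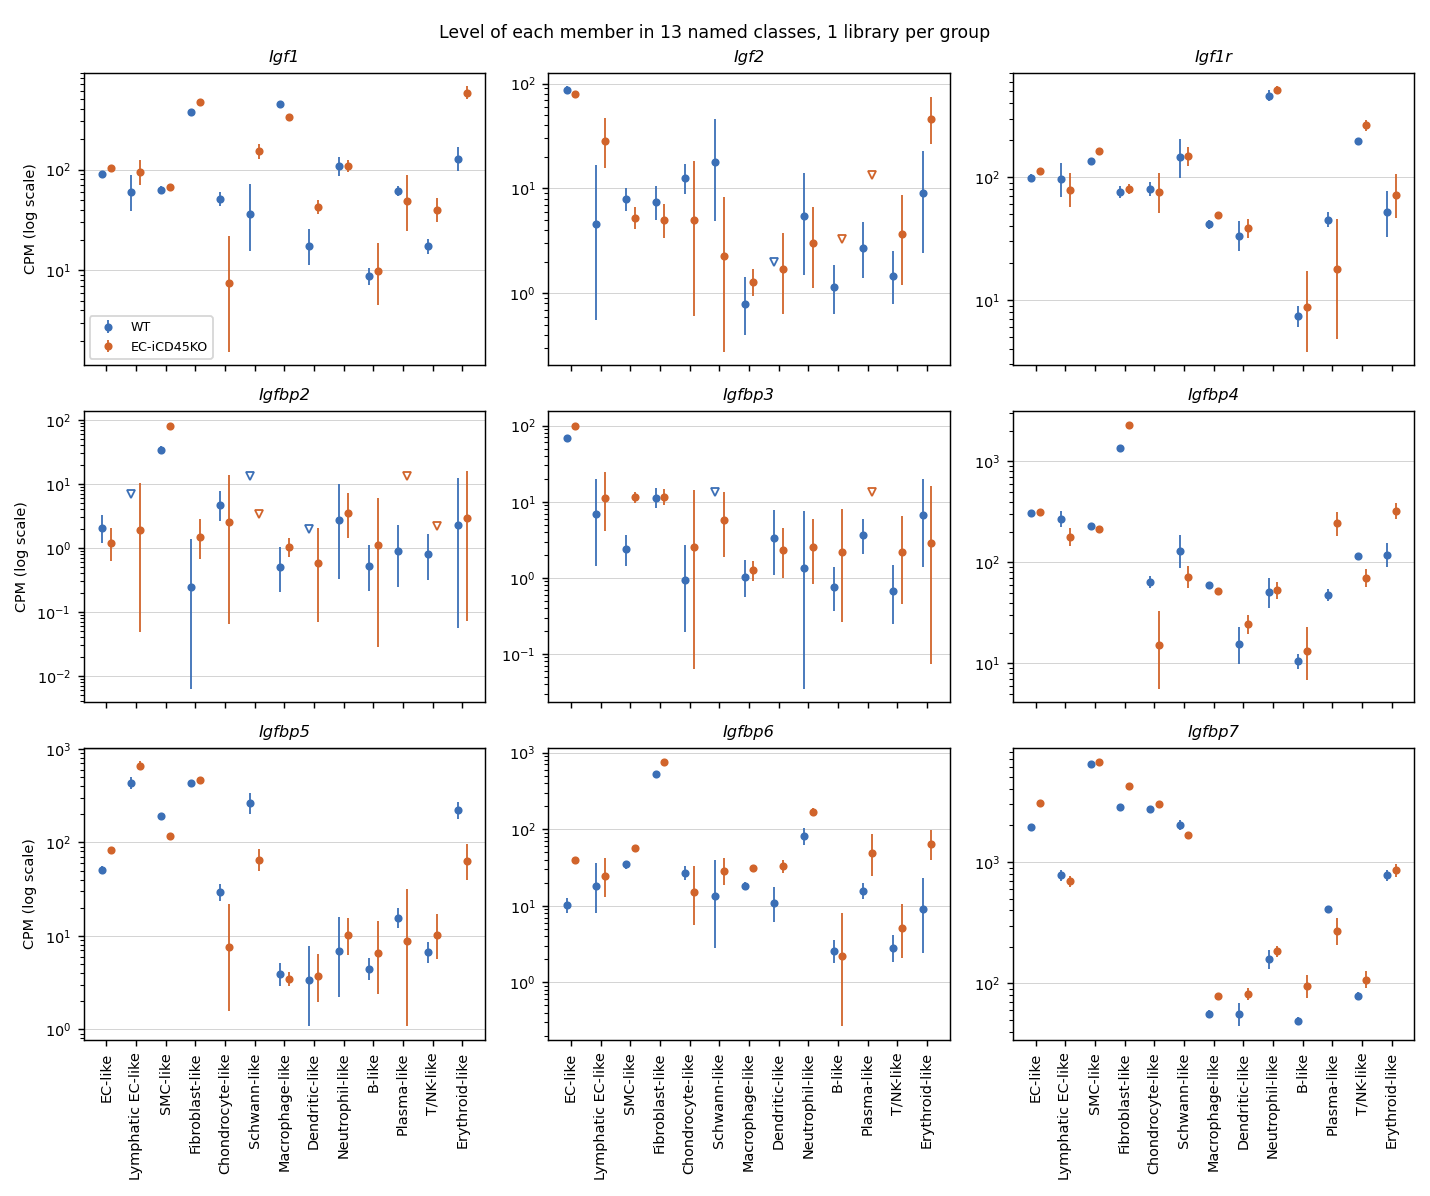
CPM of each member (log axis) in 13 named cell classes, 1 panel per gene, with WT in blue and EC-iCD45KO in orange. Bars are 95% Poisson intervals of the summed UMIs, and open triangles stand at the level of 3 UMIs where none was counted. Igfbp2 stood at 34.3 and 82.0 CPM in SMC-like cells and below 5 CPM in every other class, and Igfbp7 was above 500 CPM in the EC-like, lymphatic EC-like, SMC-like, fibroblast-like, chondrocyte-like, Schwann-like and erythroid-like classes.

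Igf1 (ENSMUSG00000020053; chromosome 10, 87858265 to 87937042, plus strand) was a macrophage and fibroblast transcript in these aortas. Macrophage-like cells had 448 CPM in WT (437 to 459) against 335 CPM in EC-iCD45KO (329 to 341), from 6197 and 12025 UMIs. The level there was lower in EC-iCD45KO, with a log2 ratio of -0.42 (-0.46 to -0.37). Over the alternatives the ratio ran from -0.59 at Leiden resolution 2 to -0.27 with equal weights for the clusters. These cells gave 48.8% of all Igf1 UMIs in WT and 64.5% in EC-iCD45KO, while they were 9.82% and 31.6% of the cells. Over all kept cells Igf1 was counted at 149 CPM in WT and 225 CPM in EC-iCD45KO, the opposite order of the level within macrophage-like cells.

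Within the macrophage-like class Igf1 differed between the clusters. The cluster led by Gpnmb and Syngr1, foamy-like by its Trem2, Gpnmb and Fabp5, had 734 CPM in WT and 624 CPM in EC-iCD45KO (log2 ratio -0.24, -0.28 to -0.19). The resident-like cluster led by Ccl8 and Mrc1 had 240 and 165 CPM. The monocyte-derived-like cluster led by Chil3 and Arg1 had 69.5 and 78.2 CPM, so the level there was not lower in EC-iCD45KO. The foamy-like cluster was higher than the resident-like cluster in both libraries. After each cell was thinned to 1000 UMIs, 46.7% of foamy-like cells in WT and 39.4% in EC-iCD45KO held an Igf1 UMI, leaving out 197 and 1050 shallower cells (71.8% and 54.4% without thinning, at medians of 3301 and 1652.5 UMIs over all cells of the cluster). The same share in B-like cells was 0.872% and 0.645%, leaving out 403 and 22 cells (1.95% and 2.41% without thinning).

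Fibroblast-like cells carried Igf1 at 369 CPM in WT and 471 CPM in EC-iCD45KO (log2 ratio 0.35, 0.26 to 0.44). The order of fibroblast-like and macrophage-like cells thus differed between the libraries. In EC-like cells it stood at 90.7 and 105 CPM (log2 ratio 0.21, 0.07 to 0.34), not above the 108 CPM of neutrophil-like cells in either library. The EC-like log2 ratio was -0.03 with the looser cell filter and at Leiden resolution 2, and 0.50 as a mean of single-cell CPM. Of the EC-like clusters the one led by Rbp7 and Fabp4 had the highest mean level, at 149.9 and 158 CPM (0.08, -0.10 to 0.25). Igf1 stood at 81.9 and 157 CPM in the venous EC-like cluster, led by Ackr1 and Selp (0.94, 0.61 to 1.28), at 62.3 and 29.8 CPM in the arterial EC-like cluster and at 27.7 and 27.8 CPM in the capillary EC-like cluster. In the Rbp7 and Fabp4 cluster the 10 macrophage markers summed to 4880 and 6904 CPM, above the 12 endothelial markers at 2703 and 2870 CPM. The macrophage markers summed to 1421 and 3739 CPM in the venous, 1931 and 2546 CPM in the arterial and 769 and 639 CPM in the capillary EC-like cluster. None of them was at 0 in any of these clusters, and their part in the Igf1 levels was not tested. In erythroid-like cells Igf1 stood at 128 CPM in WT and 580 CPM in EC-iCD45KO, from 57 and 201 UMIs. The 10 macrophage markers summed to 4784 CPM in the erythroid-like cells of WT and 10528 CPM in those of EC-iCD45KO, none at 0, and their part in the Igf1 level was not tested. The antisense gene Igf1os overlaps the 5' end of Igf1. It had 6.43 and 5.16 CPM in macrophage-like cells, and whether strand was used in the counting was not given in the sources used here.

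Igf2 (ENSMUSG00000048583; chromosome 7, 142650766 to 142666816, minus strand) was an endothelial transcript here, and its highest level was in the arterial-like cluster. EC-like cells gave 66.2% of its UMIs in WT and 76.6% in EC-iCD45KO, at 87.3 and 79.1 CPM (log2 ratio -0.14, -0.29 to 0.00). Over the alternatives the ratio ran from -0.63 as a mean of single-cell CPM to 0.42 with equal weights for the clusters. The arterial EC-like cluster, led by Sfrp1 and Gkn3 and holding Gja5, Bmx and Gja4 among its 10 leading genes, had 181 CPM in WT (164 to 200) against 290 CPM in EC-iCD45KO (264 to 317). Its log2 ratio was 0.68 (0.48 to 0.88), but 10 cells held 27.6% of the WT UMIs and 45.9% of the EC-iCD45KO UMIs. The thinned share of cells with an Igf2 UMI in this cluster was 12.1% in WT (9.77% to 14.7%) against 12.9% in EC-iCD45KO (9.81% to 16.6%), within each other's intervals (16.4% and 16.2% without thinning, with 210 and 111 shallower cells left out). The cluster led by Rbp7 and Fabp4, both on the capillary marker list although the cluster stayed without a subtype name, stood at 73.2 and 52.7 CPM, and the capillary EC-like cluster led by Gpihbp1 and Ccdc85a stood at 50.3 and 57.3 CPM.

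Outside the EC-like class Igf2 was highest, among the 25 clusters compared, in a small one led by Higd1b and Notch3, whose SMC and pericyte marker scores were level so that it has no class name. It held 76 and 93 cells and had Igf2 at 116 and 69.3 CPM. In macrophage-like cells Igf2 was 0.795 and 1.28 CPM, and B-like cells had 15 UMIs in WT and none in EC-iCD45KO, where 3 UMIs would have been 3.30 CPM. Their thinned share was 0.0928% in WT. Igf2os and a readthrough gene, Gm49394, overlap Igf2. Igf2os had 1 UMI among EC-like cells in each library.

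Igf1r (ENSMUSG00000005533; chromosome 7, 67952827 to 68233668, plus strand), the receptor that transmits the signal of both ligands, was detected above the level of B-like cells throughout the vessel wall. Neutrophil-like cells had 461 CPM in WT (413 to 513) against 514 CPM in EC-iCD45KO (483 to 547), and the log2 ratio of 0.16 (-0.02 to 0.34) did not exceed counting error. A T/NK-like cluster led by Trdc and Cd163l1, with Il23r and Il17a among its 10 leading genes, reached 626 and 533 CPM. The T/NK-like cluster led by Ccl5 and Tnfrsf4 had 130 and 69.0 CPM, and the one led by Dapl1 and Lef1 had 63.6 and 57.7 CPM. After thinning, 37.7% and 39.0% of the Trdc and Cd163l1 cells held an Igf1r UMI (52.0% and 55.6% without thinning), leaving out 192 and 52 cells. In B-like cells the level was 7.36 and 8.79 CPM and the thinned share 0.631% and 0.323%.

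Outside the leukocytes the highest Igf1r levels were in SMC-like cells, at 135 CPM in WT and 163 CPM in EC-iCD45KO (log2 ratio 0.28, 0.17 to 0.38, but 0.0076 at Leiden resolution 2), and in Schwann-like cells, at 145 and 148 CPM, and the intervals of these classes overlapped. EC-like cells stood at 98.8 and 113 CPM (0.19, 0.06 to 0.32, but 0.03 with equal weights for the clusters), fibroblast-like cells at 75.7 and 79.9 CPM and macrophage-like cells at 41.3 and 48.8 CPM (0.24, 0.10 to 0.38). The levels of SMC-like, EC-like, fibroblast-like and macrophage-like cells each lay above that of B-like cells in both libraries.

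**Figure D2:**
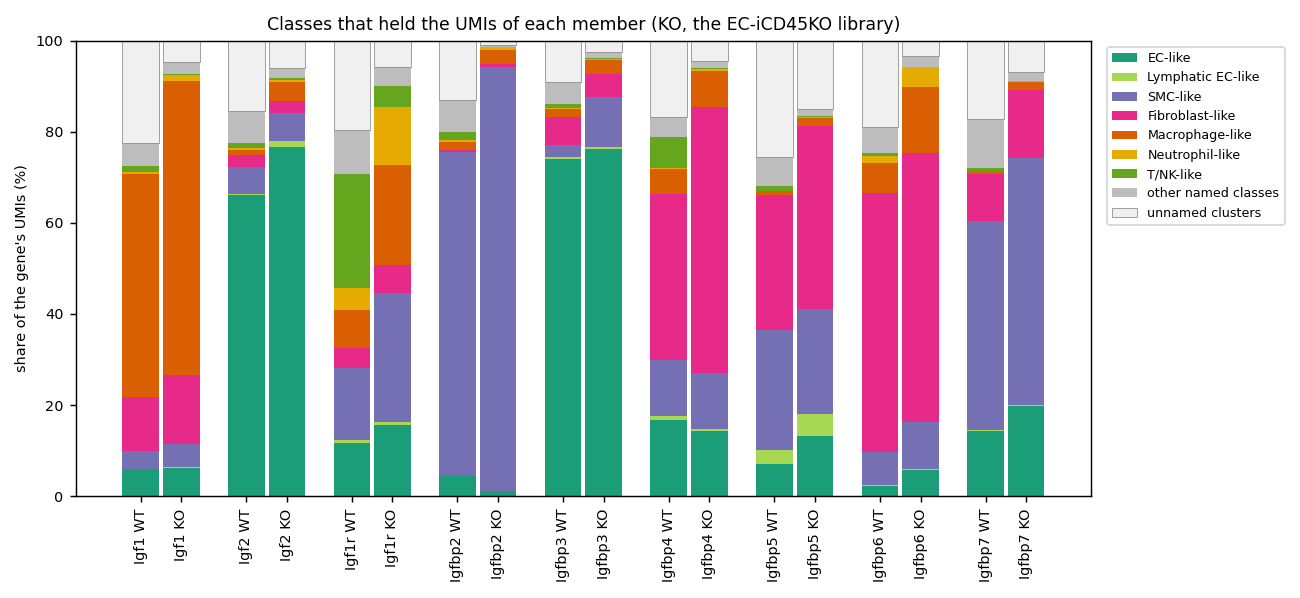
Share of each member's UMIs that came from each class (percent, stacked bars), for WT and for EC-iCD45KO (written KO). Igf2 and Igfbp3 came mostly from EC-like cells, and Igfbp2 from SMC-like cells. Macrophage-like cells gave 48.8% of the Igf1 UMIs in WT and 64.5% in EC-iCD45KO. Unnamed clusters held 22.5% of the Igf1 UMIs in WT and 4.62% in EC-iCD45KO.

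Igfbp2 (ENSMUSG00000039323), a binding protein that also circulates, came mostly from 1 class. SMC-like cells gave 71.2% of its UMIs in WT and 93.1% in EC-iCD45KO, at 34.3 CPM (30.4 to 38.7) and 82.0 CPM (77.3 to 87.0). The log2 ratio was 1.26 (1.06 to 1.45). The thinned share of SMC-like cells with an Igfbp2 UMI was 3.71% in WT (2.81% to 4.80%) against 4.72% in EC-iCD45KO (3.94% to 5.60%), with 346 and 986 cells left out, and 6.18% and 7.34% without thinning. In B-like cells it was 0.0186% and 0.323%.

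The 2 SMC-like clusters differed. In the cluster led by Vcam1 and Acta2, the deepest of the 25 clusters compared, with medians of 8120 and 9688 UMIs per cell, Igfbp2 stood at 26.8 and 85.3 CPM (log2 ratio 1.67, 1.42 to 1.92). In the cluster led by Cnn1 and Tagln it stood at 57.6 and 76.8 CPM (0.41, 0.11 to 0.73). In the Vcam1 and Acta2 cluster 10 cells held 74.7% of the WT UMIs and 45.4% of the EC-iCD45KO UMIs, and 1 EC-iCD45KO cell held 66. In this cluster the thinned share of cells with a UMI was 1.22% in WT (0.528% to 2.39%) against 5.04% in EC-iCD45KO (3.63% to 6.81%), with 3 and 16 cells left out (5.31% and 12.9% without thinning). The class log2 ratio moved with the processing: as a mean of single-cell CPM it was 0.14, at Leiden resolution 2 it was 0.42, with the looser cell filter 0.74, and with equal weights for the clusters 0.94. Fibroblast markers also differed in this cluster, with the 10 markers at 15367 CPM in WT and 11924 CPM in EC-iCD45KO, and the 10 SMC markers stood at 14032 and 26393 CPM, with none of either list at 0. Their part in the Igfbp2 difference was not tested. In EC-like cells Igfbp2 had 17 and 13 UMIs.

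Igfbp3 (ENSMUSG00000020427; chromosome 11, 7206086 to 7213923, minus strand), the main carrier of circulating IGFs, was a capillary transcript. EC-like cells gave 74.1% and 76.3% of its UMIs, at 67.8 CPM in WT (62.3 to 73.7) against 99.2 CPM in EC-iCD45KO (93.4 to 105), giving a log2 ratio of 0.55 (0.40 to 0.70). The capillary EC-like cluster led by Gpihbp1 and Ccdc85a was highest at 146 and 188 CPM (0.36, 0.14 to 0.58), and the Rbp7 and Fabp4 cluster had 76.4 and 85.5 CPM. The larger ratios lay in the clusters with lower levels. The arterial EC-like cluster stood at 15.1 and 47.3 CPM (1.64, 1.04 to 2.28) and the venous EC-like cluster at 23.5 and 54.1 CPM (1.20, 0.60 to 1.85). In these, 10 cells held between 66.7% and 76.2% of the UMIs of each library.

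In SMC-like cells Igfbp3 was low, at 2.37 CPM in WT and 11.4 CPM in EC-iCD45KO, from 19 and 157 UMIs (log2 ratio 2.27, 1.58 to 3.04). Of these UMIs 14 and 133 lay in the Cnn1 and Tagln cluster, where the 12 endothelial markers summed to 504 CPM in WT and 830 CPM in EC-iCD45KO, none at 0, and their part in the difference was not tested. With the looser cell filter the log2 ratio was 1.30 and the mean level fell below the 5 CPM minimum. B-like cells had 0.759 and 2.20 CPM.

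Igfbp4 (ENSMUSG00000017493; chromosome 11, 99041244 to 99054392, plus strand), a binding protein cleaved by the protease Pappa, was foremost a fibroblast transcript. Fibroblast-like cells had 1355 CPM in WT (1320 to 1391) against 2317 CPM in EC-iCD45KO (2279 to 2356), from 5513 and 13979 UMIs. The level was higher in EC-iCD45KO with a log2 ratio of 0.77 (0.73 to 0.82), and over the alternatives the log2 ratio stayed between 0.60 and 0.86. The thinned share of cells with an Igfbp4 UMI was 52.0% and 59.5%, with 716 and 919 cells left out (55.9% and 64.5% without thinning), beside 0.947% and 0.968% in B-like cells. The 10 fibroblast markers summed to 19867 and 24894 CPM in the same cells, and their part in the difference was not tested.

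EC-like cells as a class were level for Igfbp4, at 308 CPM in WT and 312 CPM in EC-iCD45KO (log2 ratio 0.02, -0.05 to 0.10), while the EC-like clusters were not. The class value ran from -0.26 with the stricter cell filter to 0.33 with equal weights for the clusters. The arterial EC-like cluster was highest and stood at 642 and 984 CPM (0.62, 0.51 to 0.72), and its thinned share of cells with a UMI stood at 29.4% (26.1% to 33.0%) and 38.8% (34.0% to 43.8%). In marker score the fibroblast list came next after the endothelial list in this cluster, at 1.30 against 3.84. The part of fibroblast RNA in its Igfbp4 difference was not tested. The capillary EC-like cluster was lowest in EC-iCD45KO and stood at 157 and 92.7 CPM (log2 ratio -0.76). The venous EC-like cluster stood at 328 and 388 CPM and the Rbp7 and Fabp4 cluster at 151 and 140 CPM. The small cluster led by Higd1b and Notch3 had Igfbp4 at 608 and 579 CPM. Among leukocytes the gene was highest in the T/NK-like cluster led by Dapl1 and Lef1, at 241 and 380 CPM, although that cluster had 65 cells in EC-iCD45KO.

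Igfbp5 (ENSMUSG00000026185) is a matrix-bound binding protein, and here it marked lymphatic endothelium, fibroblasts and the small cluster with level SMC and pericyte markers. Lymphatic EC-like cells had 432 CPM in WT (372 to 498) against 664 CPM in EC-iCD45KO (597 to 737), from 215 and 199 cells. In these cells the 10 fibroblast markers summed to 1901 and 375 CPM, the 10 macrophage markers to 1605 and 4149 CPM and the 7 B cell markers to 1019 and 132 CPM, none at 0, and their part in the difference was not tested. Fibroblast-like cells had 428 and 465 CPM (log2 ratio 0.12, 0.03 to 0.21), which turned to -0.17 with the stricter cell filter. The small cluster led by Higd1b and Notch3 reached 1269 CPM (1150 to 1396) and 1221 CPM (1137 to 1311), the highest of the 25 clusters compared in both libraries, and these intervals overlap. The neighbouring gene Igfbp2, whose upstream sequence is printed above beside that of Igfbp5, had 2 UMIs in this cluster in WT and none in EC-iCD45KO.

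In SMC-like cells Igfbp5 was lower in EC-iCD45KO, at 194 CPM in WT and 117 CPM in EC-iCD45KO (log2 ratio -0.73, -0.83 to -0.63). The lower level lay in the Vcam1 and Acta2 cluster, which stood at 224 and 107 CPM (-1.06, -1.19 to -0.94), whereas the Cnn1 and Tagln cluster stood at 100 and 133 CPM (0.40, 0.17 to 0.64). The 10 fibroblast markers, whose class has Igfbp5 at 428 and 465 CPM, summed to 15367 and 11924 CPM in the Vcam1 and Acta2 cluster and to 12572 and 8393 CPM in the whole class, and their part in the Igfbp5 difference was not tested. As a mean of single-cell CPM the class log2 ratio was -0.11. Igfbp2 and Igfbp5, the neighbours, thus had log2 ratios of opposite sign in the Vcam1 and Acta2 cluster, at 1.67 for Igfbp2 and -1.06 for Igfbp5. In Schwann-like cells Igfbp5 stood at 262 and 65.3 CPM, from 58 and 57 UMIs, while the 10 macrophage markers summed to 1419 and 8052 CPM there, the 10 fibroblast markers to 3213 and 2053 CPM, the 7 pericyte markers to 384 and 121 CPM and the 7 plasma cell markers to 5553 and 217 CPM. Their part in this Igfbp5 difference was not tested.

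In EC-like cells Igfbp5 was 50.2 CPM in WT and 83.3 CPM in EC-iCD45KO (log2 ratio 0.73, 0.56 to 0.90), and this class value joined clusters with log2 ratios of opposite sign. It was past 2-fold at Leiden resolution 2, at 1.02, and as a mean of single-cell CPM, at 1.21, and stood at 0.44 with equal weights for the clusters. The capillary EC-like cluster stood at 23.7 CPM (17.1 to 32.1) and 175 CPM (160 to 191), with 42 and 510 UMIs and a log2 ratio of 2.88 (2.43 to 3.37). The venous EC-like cluster stood at 143 CPM (122 to 167) and 39.0 CPM (31.9 to 47.2), with 164 and 106 UMIs and a log2 ratio of -1.87 (-2.24 to -1.51). Few cells carried these UMIs. In the capillary EC-like cluster of EC-iCD45KO 10 cells held 53.5% of them and 1 cell held 77, and in the venous EC-like cluster of WT 10 cells held 78.0% and 1 cell held 34. The thinned share of capillary EC-like cells with an Igfbp5 UMI was 0.771% in WT (0.210% to 1.96%) against 5.43% in EC-iCD45KO (3.81% to 7.47%), leaving out 71 and 50 cells (2.54% and 7.05% without thinning). For the venous EC-like cluster it was 6.75% (3.98% to 10.6%) and 4.64% (3.24% to 6.43%), leaving out 9 and 40 cells (12.3% and 7.90% without thinning), so the difference in share was not detectable at this depth. In B-like cells the share was 0.371% and 0.968%.

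Other markers moved in the venous EC-like cluster. The 7 lymphatic endothelial markers summed to 1981 CPM there in WT and 70.6 CPM in EC-iCD45KO, none at 0, and their part in the Igfbp5 difference was not tested. In the capillary EC-like cluster the lymphatic markers stood at 61.6 and 63.2 CPM, the 7 pericyte markers at 72.9 and 46.7 CPM and the 10 fibroblast markers at 157 and 146 CPM.

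Igfbp6 (ENSMUSG00000023046; chromosome 15, 102144362 to 102149511, plus strand), a binding protein that prefers IGF2 over IGF1, was a fibroblast transcript with a second site in neutrophils. Fibroblast-like cells had 526 CPM in WT (504 to 549) against 745 CPM in EC-iCD45KO (724 to 767), giving a log2 ratio of 0.50 (0.43 to 0.58), and gave 56.8% and 59.0% of its UMIs. The fibroblast markers, at 19867 and 24894 CPM in these cells, moved with it, as they did beside the higher Igf1, Igfbp4 and Igfbp7 of this class, and their part was not tested. Neutrophil-like cells had 80.7 CPM (61.4 to 104) and 168 CPM (151 to 187), a log2 ratio of 1.06 (0.66 to 1.48), and a thinned share of cells with a UMI of 7.86% and 14.8% (9.57% and 17.3% without thinning, with 190 and 375 cells left out). In B-like cells the level was 2.58 and 2.20 CPM, with a thinned share of 0.260% in WT and 0 in EC-iCD45KO. In the neutrophil-like cells the 10 fibroblast markers summed to 451 CPM in WT and 339 CPM in EC-iCD45KO, the 10 macrophage markers to 3875 and 6714 CPM and the 10 SMC markers to 268 and 530 CPM. In WT 1 fibroblast and 1 SMC marker were at 0, and the part of these markers in the Igfbp6 difference was not tested.

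Igfbp6 had the largest ratio of the members in EC-like cells, at 10.2 CPM in WT (8.17 to 12.7) against 39.8 CPM in EC-iCD45KO (36.1 to 43.7), from 84 and 438 UMIs (log2 ratio 1.96, 1.62 to 2.31). The venous EC-like cluster was highest in both libraries, at 16.6 and 104 CPM (2.66, 1.99 to 3.41), and held 284 of the 438 UMIs of EC-iCD45KO. The arterial EC-like cluster stood at 9.17 and 31.7 CPM (1.79, 1.02 to 2.62), the Rbp7 and Fabp4 cluster at 12.3 and 23.0 CPM (log2 ratio 0.91), and the capillary EC-like cluster had 7 and 16 UMIs. The thinned share of venous EC-like cells with an Igfbp6 UMI was 1.98% (0.647% to 4.57%) and 9.56% (7.53% to 11.9%), with 9 and 40 cells left out, beside 6.13% and 20.6% without thinning. In the same cluster the 10 fibroblast markers summed to 1186 CPM in WT and 2640 CPM in EC-iCD45KO, the 10 macrophage markers to 1421 and 3739 CPM and the 10 SMC markers, 1 of them at 0 in each library, to 732 and 2040 CPM. Their part in the Igfbp6 difference was not tested. With the stricter cell filter the EC-like log2 ratio was 0.90, below a 2-fold difference, with Leiden resolution 2 it was 1.11 and with the looser filter 1.23.

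Igfbp7 (ENSMUSG00000036256; chromosome 5, 77349240 to 77408041, minus strand) was present throughout the vessel wall. SMC-like cells had 6444 CPM in WT (6388 to 6500) against 6704 CPM in EC-iCD45KO (6660 to 6747), giving a log2 ratio of 0.06 (0.04 to 0.07), and 93.8% of them held a UMI after thinning in both libraries. Fibroblast-like cells had 2840 and 4201 CPM (0.56, 0.53 to 0.60) and chondrocyte-like cells 2720 and 3025 CPM. EC-like cells had 1951 CPM (1921 to 1981) and 3062 CPM (3029 to 3095), a log2 ratio of 0.65 (0.62 to 0.68), and the thinned share of cells with a UMI was 57.4% and 73.0% (62.3% and 74.4% without thinning, with 1224 and 1507 cells left out), beside 5.12% and 8.71% of B-like cells. The 10 SMC markers summed to 747 and 1154 CPM in the EC-like cells and the 7 pericyte markers to 90.7 and 142 CPM. None of either list was at 0, and their part in this difference was not tested. Within endothelium the level differed between the clusters. The venous EC-like cluster had 3712 and 4921 CPM, the capillary EC-like cluster 3361 and 4353 CPM, the Rbp7 and Fabp4 cluster 1518 and 1866 CPM, and the arterial EC-like cluster 495 and 393 CPM.

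The class ratio of Igfbp7 in endothelium exceeded that of any of its clusters, which ranged from -0.33 to 0.41. The venous EC-like cluster, the highest, made up 261 of 3807 EC-like cells in WT and 772 of 4495 in EC-iCD45KO, and with equal weights for the clusters the class log2 ratio was 0.34. In macrophage-like cells Igfbp7 stood at 56.0 and 79.3 CPM and the B-like cells at 49.5 and 95.6 CPM, so the macrophage-like level did not stand above that of B-like cells in EC-iCD45KO. The 3' end of Igfbp7 overlaps that of Polr2b, a gene on the other strand, and the antisense gene Gm34648 lies within Igfbp7. Polr2b had 32.8 and 29.9 CPM in EC-like cells.

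The members are set side by side for the 4 main classes in the plot of ratios by class. A gene was measured in a class where its mean level was at least 5 CPM with at least 20 UMIs, and it counted as past 2-fold where its log2 ratio was at least 1 in size. In EC-like cells 1 of the 8 measured members was past 2-fold, Igfbp6, beside 5.24% of all 11022 measured genes. The median log2 ratio of the 8 was 0.38, and that of all genes -0.01. In SMC-like cells 2 of 9 were past 2-fold, Igfbp2 and Igfbp3, beside 5.36% of 10801 genes, with medians of 0.11 and -0.05. Igfbp3 reached the minimum there only through EC-iCD45KO, so that it could be counted only as higher. At Leiden resolution 2 the count was also 2, but of Igf2 (-1.37) and Igfbp6 (1.03), neither of them Igfbp2 or Igfbp3. In fibroblast-like cells none of 8 was past 2-fold, beside 6.38% of 11078 genes, and in macrophage-like cells none of 5, beside 2.62% of 9559 genes. The medians there were 0.24 against -0.06 and 0.24 against -0.04.

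**Figure D3:**
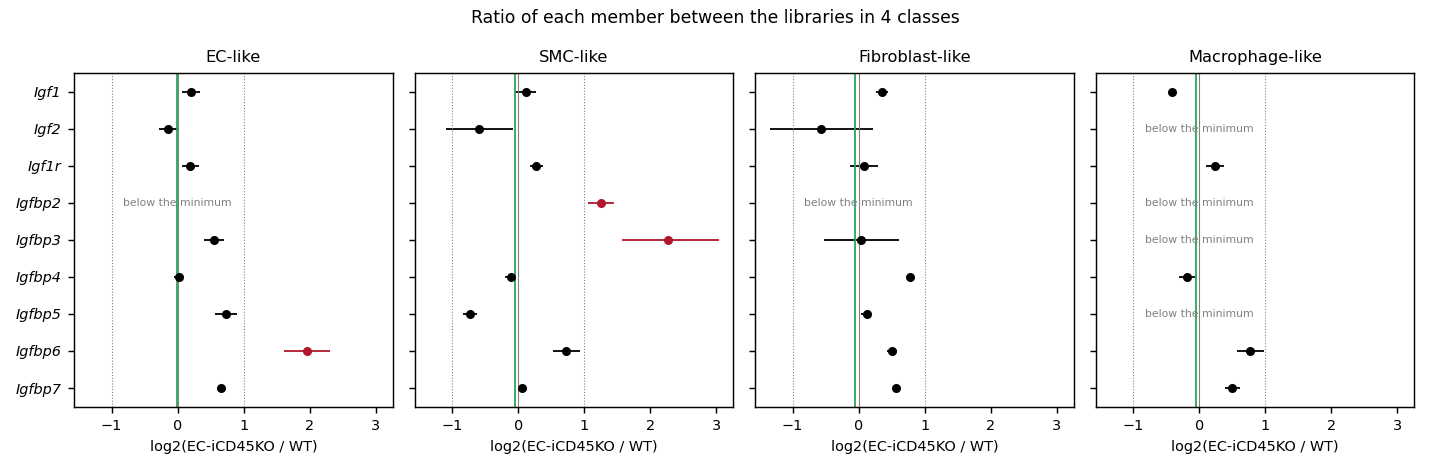
Log2 ratio of EC-iCD45KO to WT for each member in 4 classes, with 95% intervals of counting error. Dotted lines mark 2-fold, green lines the median of all measured genes, and red points the members past 2-fold. Igfbp6 at 1.96 in EC-like cells and Igfbp2 at 1.26 and Igfbp3 at 2.27 in SMC-like cells lie past the line.

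Within the EC-like class the count of members past 2-fold ranged from none to 4. In the arterial EC-like cluster 4 of 8 measured members were past 2-fold, beside 7.82% of all genes: Igfbp3, Igfbp5 and Igfbp6 were higher and Igf1 lower. Igf1 stood there at 62.3 and 29.8 CPM (log2 ratio -1.06, -1.57 to -0.58). Igfbp5 stood there at 17.0 and 49.1 CPM, its lowest mean level among the 4 EC-like clusters. In the venous EC-like cluster 4 of 8 were past 2-fold, beside 11.2% of all genes: Igf2, Igfbp3 and Igfbp6 were higher and Igfbp5 lower. The Igf2 value there rested on 5 and 40 UMIs, at 4.36 and 14.7 CPM (1.76, 0.42 to 3.46), and it too reached the minimum only through EC-iCD45KO. In the capillary EC-like cluster 1 of 7 was past 2-fold, Igfbp5, beside 6.08% of all genes. In the Rbp7 and Fabp4 cluster, the largest of the class with 2043 and 2515 cells, none of 8 was past 2-fold, beside 7.76%. Macrophage markers summed above the endothelial markers in that cluster in both libraries, so its values are not of endothelial RNA alone. No test of the difference between clusters was possible.

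**Figure D4:**
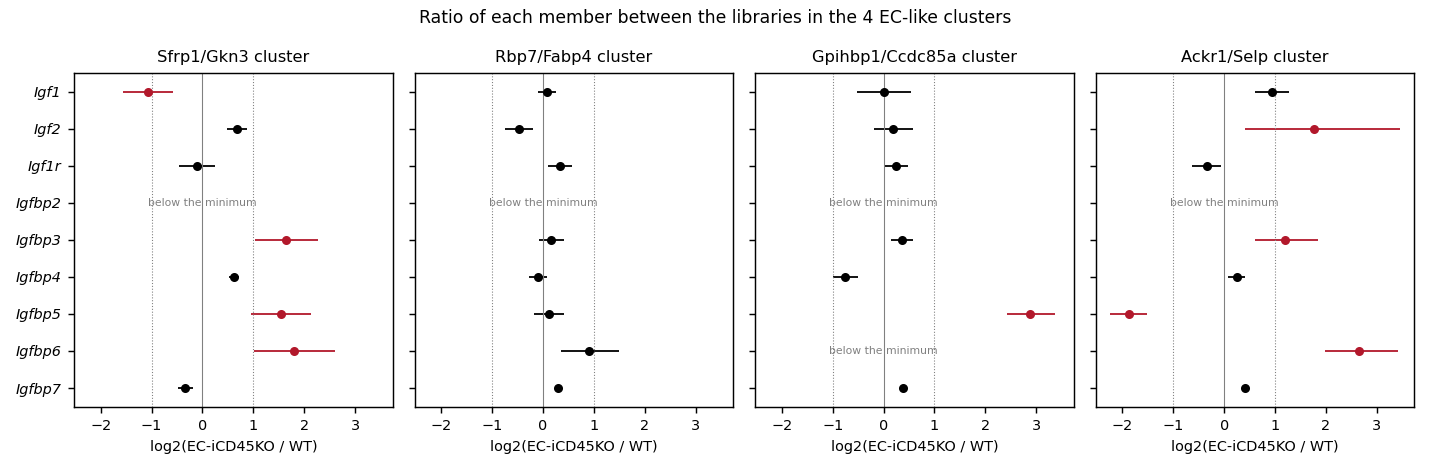
Log2 ratio of EC-iCD45KO to WT for each member in the 4 EC-like clusters, with 95% intervals of counting error and dotted lines at 2-fold. Members under the minimum of 5 CPM or 20 UMIs are written as such. Igfbp5 lies at 2.88 in the Gpihbp1/Ccdc85a cluster and at -1.87 in the Ackr1/Selp cluster.

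The other genes of the pathway were read from a list of 51 genes of further carriers, receptors, adaptors and kinases, FoxO factors, proteases of the binding proteins and their inhibitors, RNA-binding and imprinted partners, and related matrix proteins. In EC-like cells 33 were measured, 2 were past 2-fold higher and 1 lower in EC-iCD45KO, beside 5.24% of all genes, and their median log2 ratio was 0.03 against -0.01 for all genes. Esm1, a proteoglycan of activated endothelium, stood at 2.44 and 22.0 CPM (3.17, 2.51 to 3.91), Ccn5, a matricellular protein, at 7.68 and 16.4 CPM (1.10, 0.68 to 1.53), and Plagl1, an imprinted zinc finger factor, at 11.9 and 5.35 CPM (-1.16, -1.65 to -0.68). In SMC-like cells 35 were measured and only Pappa was past 2-fold, beside 5.36% of all genes, at 14.6 and 6.05 CPM (-1.27, -1.70 to -0.86). Pappa is a secreted protease that cleaves Igfbp4 and Igfbp5. The receptors beside Igf1r in these cells stayed under 2-fold, with Igf2r at 45.7 and 77.6 CPM (0.76, 0.59 to 0.94) and Insr at 31.2 and 54.3 CPM (0.80).

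In fibroblast-like cells 37 genes of the list were measured and 3 were past 2-fold, beside 6.38% of all genes. In this class and in EC-like cells Esm1 reached the minimum only through EC-iCD45KO. In fibroblast-like cells Esm1 stood at 1.47 and 36.8 CPM on 6 and 222 UMIs (4.64), Ccn4, a matricellular protein, at 10.8 and 26.9 CPM (1.31, 0.82 to 1.83), and Adam12, a metalloprotease that can cleave binding proteins, at 14.7 and 30.7 CPM (1.06). In macrophage-like cells 24 were measured and none was past 2-fold, beside 2.62% of all genes.

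For each member the 3 genes with the most similar pattern were taken over the 13 classes in both libraries, which gives 26 points that share libraries and depth. Likeness was Pearson's r of log2(CPM + 1) among 6916 genes and is a description of these points. Igfbp7 was nearest to Lamb2 (0.98), Serpinh1 (0.98) and Cald1 (0.97), and Igfbp5 to Ndn (0.94), Pkia (0.93) and Tnxb (0.92). Igf2 was nearest to Sox17 (0.92), Stmn2 (0.90) and Vwf (0.88), and Igfbp4 to Fbln1 (0.90), Clec3b (0.89) and Cygb (0.87). Igf1 was nearest to Tmem119, Trem2 and Ms4a7 (0.86 each), and Igfbp3 to Adcy4 (0.84), Timp4 (0.84) and Dll4 (0.83). Igf1r was nearest to Slco3a1 (0.82), Leprotl1 (0.80) and Gsr (0.79), Igfbp6 to C3 (0.80), Shisa3 (0.79) and Pi16 (0.78), and Igfbp2 to Myom1 (0.78), Slc22a3 (0.77) and Jph2 (0.76). Pi16 is among the markers that named fibroblast-like cells, and Vwf and Trem2 are among those of EC-like and macrophage-like cells, so those genes also served to name classes.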

How the data were processed

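Both libraries came as count matrices. The deposited counts are whole numbers of UMIs per gene and cell, made with Cell Ranger 7.1.0 on mm10 per the submitters' processing notes. The annotation, the counting of introns, cell calling and pooling were not given in the sources used here. The members and the gene lists were chosen with earlier results of these data known, and the thresholds for naming clusters were set after the data were seen. Genes were named in the text by a rule: every member, pathway genes past 2-fold in the 4 main classes, and the 3 genes most like each member. Insr, Igf2r and the genes overlapping a member were named beside it.

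Barcodes were kept from 300 genes upwards with no more than 10% of UMIs mitochondrial (39503 WT, 28960 EC-iCD45KO). The libraries shared 340 barcodes, 1.12% of the smaller. Scrublet's own threshold marked 2 and 0 cells and so had not worked, and instead the top 10% by score were removed (3950 and 2896). Clustering used scanpy 1.11.5 with 2000 variable genes, 30 components, 20 neighbours and Leiden resolution 1, without the members, the pathway genes or Ptprc. Of 33 clusters 21 were named from 19 marker lists by a marker excess of at least 1 and a lead of at least 0.75 on the log scale over the next list, with at least 3 markers detected and at least 50 cells. A named cluster also needed a marker of its class or its subtypes among its 30 leading genes, no more markers of another class than of its own among the 10 leading genes, and no low depth without a marker there. The 13 classes and 25 clusters with at least 50 cells in each library were compared.

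UMIs were summed per class and library and given as CPM with exact Poisson intervals, shares with Clopper-Pearson intervals and ratios with exact conditional binomial intervals, all at 95%. With 1 library per group no p-value was computed. Shares were also taken after thinning each cell to 1000 UMIs. The ratio code was tested on simulated data. Of 32285 genes 32235 matched GENCODE M21 on GRCm38, the source of the positions. Alternatives were a stricter filter (500 genes, 5%) and a looser one (200 genes, 20%), no doublet removal, Leiden resolution 2, TMM scaling (edgeR 4.0.16), a total without mitochondrial, ribosomal, haemoglobin and immunoglobulin genes, no minimum level, means of single-cell CPM, thinning to 2000 UMIs or none, and, added after seeing the data, equal weights for the clusters of a class.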

Additional observations from a re-analysis of the deposited data

Results flagged for a closer look

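The difference in Igfbp5 between EC-iCD45KO and WT had opposite directions in 2 clusters of endothelial cells. The capillary EC-like cluster led by Gpihbp1 and Ccdc85a had 23.7 CPM in WT and 175 CPM in EC-iCD45KO (log2 ratio 2.88, 2.43 to 3.37). The venous EC-like cluster led by Ackr1 and Selp had 143 CPM in WT and 39.0 CPM in EC-iCD45KO (-1.87, -2.24 to -1.51). The gap between the log2 ratios was 4.76, and with 1 library per group the difference was not tested. Of the Igfbp5 UMIs, 10 cells held 88.1% and 53.5% in the capillary EC-like cluster and 78.0% and 46.2% in the venous EC-like cluster. The 7 lymphatic endothelial markers summed to 1981 CPM in the venous EC-like cluster of WT and 70.6 CPM in that of EC-iCD45KO, and their part in the difference was not tested.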

How the results depend on the processing

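No paired analysis was possible because 1 library was made per group. The count of members past 2-fold in EC-like cells, 1, was 0 with the stricter cell filter and 2 with Leiden resolution 2 and with means of single-cell CPM, Igfbp5 being added in both. In SMC-like cells the count of 2 was 3 with the stricter cell filter, where Igf2 was added at -1.08, 0 with the looser cell filter, 1 with means of single-cell CPM and 1 with equal weights for the clusters of a class, an alternative chosen after seeing the data. In fibroblast-like cells the count of 0 was 1 with means of single-cell CPM and 1 with no minimum and 0.5 CPM added. The causes were not tested. The counts in macrophage-like cells, of pathway genes in EC-like cells and of members with 1 leading class stayed within 1.5 times under each alternative run. Over 262 recomputed log2 ratios of members 180 moved by no more than counting error and 82 moved further. None of those past 2-fold changed sign, but 17 smaller ones did, for 8 pairs of a member and a class whose reported log2 ratio was at most 0.21 in size. Of 36 recomputed shares 30 moved, since thinning depth sets a share. Means over cells moved a log2 ratio by up to 1.12 (Igfbp2 in SMC-like cells), the stricter filter by 1.06 (Igfbp6 in EC-like cells) and TMM scaling by 0.09. Counting depth limits Igfbp2 outside SMC-like cells, where 17 and 13 UMIs were found in EC-like cells.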

Other observations

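The unnamed cluster led by Slurp1 and Vcam1 was led in marker score by the fibroblast list, by 2.58 against 1.72 for the SMC list. It stayed without a class because its 10 leading genes held no fibroblast marker but the modulated SMC markers Vcam1 and Timp1, so its cells are not in the fibroblast-like values. It held 3707 cells in WT and 902 in EC-iCD45KO and carried several members. Igfbp7 stood there at 2573 and 4102 CPM, Igf1 at 136 and 91.8 CPM, and Igfbp5 at 143 and 65.2 CPM (log2 ratio -1.13, -1.48 to -0.80). The 10 fibroblast markers summed to 6218 and 12328 CPM in it and the 10 SMC markers to 3151 and 3920 CPM. In plasma-like cells Igfbp4 stood at 47.9 CPM in WT and 244 CPM in EC-iCD45KO, where the class had 75 cells. Its 9 T and NK cell markers summed to 448 and 39.98 CPM, the B cell markers to 1080 and 515 CPM, the neutrophil markers to 40.5 and 164 CPM, the SMC markers to 1117 and 626 CPM and the macrophage markers to 2357 and 3109 CPM, and their part in the Igfbp4 difference was not tested. In dendritic-like cells Igfbp6 stood at 10.7 and 32.7 CPM, while the 10 macrophage markers summed to 1516 and 3285 CPM, the 7 neutrophil markers to 14.1 and 99.996 CPM and the 10 SMC markers to 116 and 251 CPM. The 10 fibroblast markers summed to 148 and 166 CPM there, the 12 endothelial markers to 159 and 163 CPM and the 7 B cell markers to 391 and 57.0 CPM. The part of all these markers in the Igfbp6 difference was not tested.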
